A study of Mus musculus with 48 samples.

Results

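The chemokine system of the mouse, its secreted ligands and the receptors that read them, was followed in mice kept on full or restricted feeding, in 3 tissues: white fat (WAT), brown fat (BAT) and liver. The members are defined by gene symbol: the CC, CXC, CX3C and XC ligands, their G protein-coupled receptors, and the atypical receptors Ackr1 to Ackr4. Of 62 such symbols in the annotation, 59 had a row in the count tables of 25913 genes: 38 ligands, 18 signalling receptors and 3 atypical receptors. Ackr4 and the pseudogenes Ccl19-ps1 and Ccl19-ps3 were not analysed here. Low counts kept 15 of the 59 out of the tests in WAT, so that 44 were tested there (27 ligands, 14 receptors and 3 atypical receptors), against 33 in BAT and 22 in liver. Ccl20, Ccl21b, Ccl26, Ccl27b, Cxcl17 and Cxcl3 had no count in any of the 22 WAT libraries. A member can enter a test through the group in which it is high, so counts over the tested members are given as description.

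All mice were females of the F1 hybrid strain C3B6F1. Mice labelled AL were fully fed throughout. DR mice received 60% of the AL food amount from 12 weeks of age. ALDR mice began on full feeding and were later restricted, whereas DRAL mice began restricted and were later fed fully. The old animals changed diet at 24 months, and the young ALDR group spent 2 months on restriction. Young animals are labelled 5 months and old animals 26 months, although the protocol places the death of the old cohort at 27 months. In WAT there were 3 libraries each of AL and ALDR at 5 months, 3 of AL and 3 of DR at 26 months, and 5 each of ALDR and DRAL at 26 months. The BAT groups matched these in number, save that DRAL had 3, and liver held 3 old ALDR and 3 old DRAL libraries. Samples are described as biological replicates, with tissue taken in the 3 hours before the daily meal of the restricted mice. The extraction protocol calls the white fat epididymal, a depot of males, while the mice were female, so the depot is given here only as WAT.

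Library totals ran from 12247161 to 22500246 counts in WAT, from 6075585 to 19349912 in BAT and from 14678489 to 22893099 in liver. At these totals a floor of 3 counts corresponds to between 0.131 and 0.494 counts per 1000000 (CPM) of the unscaled total. All levels given in CPM are relative to library sizes scaled by the trimmed mean of M-values (TMM). Adipocyte markers were high in every WAT library (summed level 13782 to 25510 CPM over 7 genes), brown adipocyte markers in every BAT library (3929 to 9614 CPM over 6 genes) and hepatocyte markers in every liver library (74839 to 106481 CPM over 6 genes). Some libraries stood apart in the markers of other tissues. In WAT, DR replicates 2 and 3 and ALDR replicate 2 at 26 months carried 3119 to 13985 CPM of 8 skeletal muscle markers, and AL replicate 3 and ALDR replicate 2 at 26 months and AL replicate 2 at 5 months carried 2100 to 3073 CPM of 6 hepatocyte markers. In BAT, AL replicate 2 and DRAL replicate 1 at 26 months stood out for B and T cell markers (103 and 214 CPM) and ALDR replicate 5 for epithelial markers (344 CPM) and for markers of lymph node stroma and high endothelial venules (3953 CPM). In that ALDR replicate 5 the B cell sum was 16.2 CPM, the T cell sum 13.7 CPM, Ccl21a 3.66 CPM and Ccl19 0. Lymphoid genes thus did not stand out there with the stroma list, and what that list marks in this library was not tested. Counts of called members are therefore also given without the libraries that stood apart. Skeletal muscle markers were also uneven in BAT, with 5409 CPM in old ALDR replicate 3, 5262 CPM in young AL replicate 2 and 3752 CPM in DR replicate 3; these libraries were kept, and muscle was followed there by a covariate and by leaving out each library in turn.

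Chemokines are small proteins that guide the movement of leukocytes along concentration gradients, and they are classed by the spacing of the cysteines near the start of the mature protein. Inflammatory chemokines such as Ccl2 are made by stimulated stromal cells and macrophages and draw monocytes out of the blood, whereas homeostatic ones such as Ccl19, Ccl21a and Cxcl13 place lymphocytes within lymphoid tissue. Most receptors signal through inhibitory G proteins; the atypical receptors bind and remove chemokines without that signal. In fat, the pair of Ccl2 and its receptor Ccr2 is known for recruiting the monocytes that become adipose macrophages in obesity.

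The cysteine spacing can be read directly in the coding sequence. The following stretches are the reference coding bases (GENCODE M21 on GRCm38, read 5′ to 3′ on the coding strand) around that motif for the ligands on which the results below turn, with the cysteine codons in capitals. They show the spacing that separates CC ligands from CXC ligands, from the CX3C ligand and from Xcl1, which keeps a single cysteine at this place. The calls in WAT did not follow these classes. The CXC ligand Cxcl16 was lower in DR along with Ccl2, Ccl7 and Ccl12, and the CC ligands Ccl5 and Ccl11 were not called.
Ccl2: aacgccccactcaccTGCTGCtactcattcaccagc
Ccl7: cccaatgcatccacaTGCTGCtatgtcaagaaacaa
Ccl12: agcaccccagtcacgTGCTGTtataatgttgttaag
Cxcl16: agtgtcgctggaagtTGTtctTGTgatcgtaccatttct
Cxcl12: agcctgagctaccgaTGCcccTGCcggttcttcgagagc
Cxcl14: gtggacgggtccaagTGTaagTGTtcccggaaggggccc
Cxcl13: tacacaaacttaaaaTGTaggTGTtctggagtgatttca
Cx3cl1: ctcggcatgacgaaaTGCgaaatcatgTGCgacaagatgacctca
Xcl1: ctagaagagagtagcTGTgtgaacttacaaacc

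Per kilobase of exon, the scale on which genes can be compared, Ccl8 had the highest mean level in WAT of fully fed old mice (210 ± 123 CPM per kb, SD, n = 3). It was followed by Ccl6 (74.6 ± 27.7), the eosinophil chemoattractant Ccl11 (46.3 ± 15.2) and Ccl9 (32.6 ± 13.5), and the ranges of 1 SD around neighbours in this order overlapped. Ccr2 was the highest receptor, at 16 ± 2.09 CPM per kb, ninth among all members. BAT had another order, led by the atypical receptor Ackr3 (26.6 ± 9.51) and its ligand Cxcl12 (17.3 ± 3.57), and liver was led by Ccl9 (62.8 ± 10.97 in DRAL mice) and Cxcl12 (24.4 ± 1.63).

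Lifelong restriction was compared with lifelong full feeding in WAT at 26 months. Of the 44 tested members, 19 were lower in DR (13 ligands and 6 receptors) and 0 were higher, by edgeR's quasi-likelihood test with Benjamini-Hochberg adjustment over all 15828 genes tested (adjusted p under 0.05). The members lower in DR were 43.2% of those tested, against 12.5% of all genes called lower; 13.5% of all genes were called higher. Without adjustment, 22 members had a p under 0.05, and DESeq2 called 20 lower and 0 higher. The median log2 difference was -0.94 over the members and 0.00 over all genes, and 35 of the 44 lay below 0. The count depends on which libraries enter. It was 12 without DR replicate 3 and 2 (Ccl2 and Ccr2) without all the libraries rich in muscle or hepatocyte markers, which leaves DR with 1 library, and 7 with a muscle marker score as a covariate.

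Ccl2, the main monocyte attractant, stood at 16.6, 11.9 and 20.5 CPM in the 3 old AL libraries and at 1.85, 1.12 and 1.17 CPM in the 3 DR libraries. The groups did not overlap, and the log2 difference was -3.56 ± 0.51 (SE, adjusted p = 8.04e-05). Ccl7, its neighbour on chromosome 11 and a further Ccr2 ligand, was at 13.2, 15.2 and 18.1 CPM in AL and at 1.68, 0.713 and 0.989 CPM in DR (-3.78 ± 0.65, adjusted p = 0.00038). Their receptor Ccr2 fell less steeply: it read 92.4, 113 and 119.5 CPM in AL against 33.7, 22.4 and 23.2 CPM in DR (-2.03 ± 0.31, adjusted p = 0.000117). The third Ccr2 ligand, Ccl12, was 3.36, 3.64 and 2.03 CPM in AL and 1.74, 0.458 and 0.68 CPM in DR (-1.64 ± 0.52, adjusted p = 0.0253). These 4 members all had their highest DR library below their lowest AL library, as did 19.7% of all genes. The Ccl2 and Ccr2 calls held under each of the 12 alternatives run for this comparison. In 1 of these, DR keeps a single library, which is assumed to vary like the libraries of the other groups. Ccl7 lost its call only without the libraries rich in markers of other tissue.

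**Figure D1:**
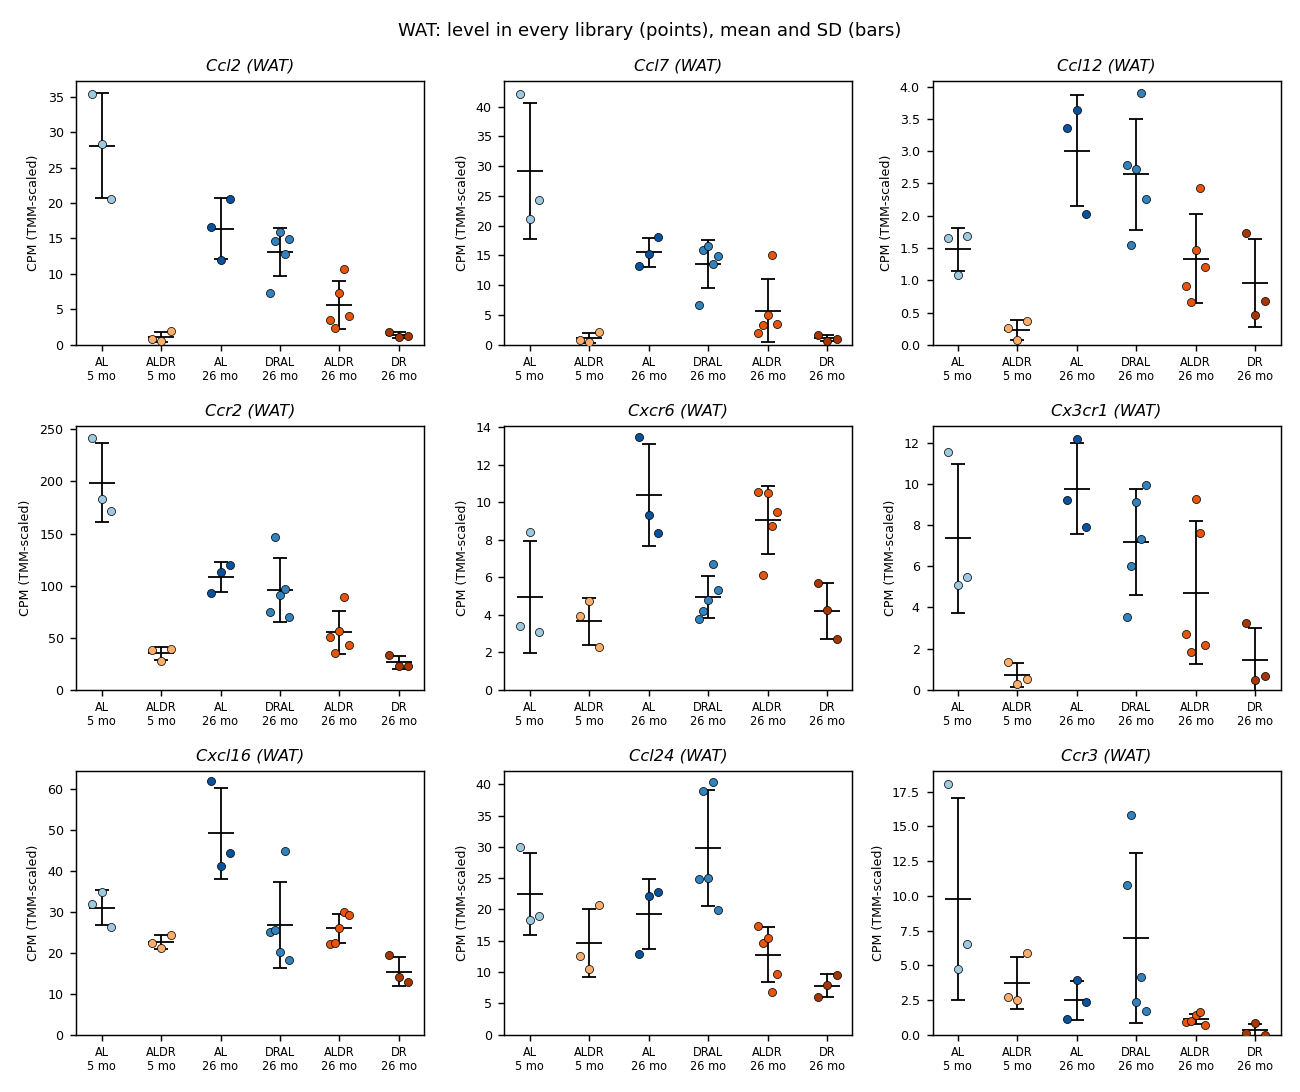
CPM (linear axis from 0) of 9 members in each of the 22 WAT libraries, by group; points are libraries, horizontal bars the mean and whiskers 1 SD. For Ccl2, Ccl7 and Ccr2 the DR libraries at 26 months and the ALDR libraries at 5 months lie below all AL libraries of the same age in the same panel; the mean of the old ALDR libraries lies between those of old DR and old AL.

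Further macrophage and monocyte members were lower as well. Ccl3 and Ccl4, products of activated macrophages and lymphocytes, differed by -3.70 ± 0.85 (adjusted p = 0.00371) and -2.79 ± 0.63 (adjusted p = 0.00319), while the T cell product Ccl5 did not pass (-1.05 ± 0.73, adjusted p = 0.306). Ccl3 rested on few reads, 60 counts in AL and 4 in DR, a ratio of 13.8 with a 95% exact interval of 5.12 to 52.3 that covers counting error only. Cx3cr1, the fractalkine receptor of monocytes and tissue macrophages, was at 9.21, 12.2 and 7.89 CPM in AL and 3.25, 0.458 and 0.68 CPM in DR (-2.74 ± 0.72, adjusted p = 0.00888), without overlap. Its ligand Cx3cl1, a membrane-bound chemokine of endothelium and other tissue cells, did not pass the test (-0.46 ± 0.26, adjusted p = 0.213). Ccr1 and 3 abundant macrophage chemokines, Ccl6, Ccl8 and Ccl9, were also lower in DR, by -1.16 to -2.08, and of these Ccl8 had an adjusted p of 0.0495.

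The eosinophil axis was mixed. Ccr3, the receptor of eosinophils, was at 1.15, 3.92 and 2.34 CPM in AL and at 0.116, 0.814 and 0 CPM in DR (-2.89 ± 0.96, adjusted p = 0.0319), with 138 and 18 counts in all. Its ligand Ccl24, made largely by macrophages, read 12.9, 22.2 and 22.8 CPM in AL and 5.97, 7.94 and 9.58 CPM in DR (-1.30 ± 0.36, adjusted p = 0.0125). Ccl11, a further Ccr3 ligand, was 31.3, 57.8 and 61.3 CPM in AL and 39.8, 33.7 and 24.8 CPM in DR, groups that overlap (-0.61 ± 0.26, adjusted p = 0.0951).

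Among the CXC ligands, Cxcl16, a scavenger receptor and ligand of Cxcr6, was at 61.8, 41.1 and 44.3 CPM in AL and at 19.4, 14 and 12.7 CPM in DR (-1.68 ± 0.26, adjusted p = 0.000157). Cxcr6, a receptor of T and NK cells, was lower too (-1.30 ± 0.37, adjusted p = 0.0132). The neutrophil attractants Cxcl1 and Cxcl2 and the interferon-inducible Cxcl10 passed the test at low levels: Cxcl1 by -1.49 ± 0.41 (adjusted p = 0.011), Cxcl2 by -3.98 ± 1.07 (adjusted p = 0.00991) on 40 counts in AL and 2 in DR, and Cxcl10 by -2.17 ± 0.63 (adjusted p = 0.0168). The counts of Cxcl2 give a ratio of 18.4 with a 95% exact interval of 4.77 to 157. Cxcl9, which shares the receptor Cxcr3 with Cxcl10, did not pass (-0.79 ± 0.40, adjusted p = 0.157), nor did Cxcr3 (-0.54 ± 0.49, adjusted p = 0.442).

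The promoters of Cxcl1, Cxcl2 and Cxcl10 are shown because these 3 ligands fell together and each holds, within 250 bases before its RefSeq start, a match to the NF-kB motif, a binding motif of transcription factors active in inflammation. The 200 bases before the start (RefSeq, GRCm38.p6, 5′ to 3′ on the gene's strand) are printed with the matched bases in capitals.
Cxcl1, chr5:90891045-90891244, plus strand: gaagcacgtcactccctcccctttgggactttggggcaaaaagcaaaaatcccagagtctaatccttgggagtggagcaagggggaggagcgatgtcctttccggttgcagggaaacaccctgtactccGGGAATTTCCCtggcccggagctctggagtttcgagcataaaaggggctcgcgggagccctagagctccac
Cxcl2, chr5:90903699-90903898, plus strand: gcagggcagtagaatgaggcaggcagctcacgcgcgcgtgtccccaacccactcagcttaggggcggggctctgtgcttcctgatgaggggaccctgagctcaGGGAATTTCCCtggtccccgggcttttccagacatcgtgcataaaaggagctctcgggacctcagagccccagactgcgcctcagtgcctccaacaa
Cxcl10, chr5:92348890-92349089, minus strand: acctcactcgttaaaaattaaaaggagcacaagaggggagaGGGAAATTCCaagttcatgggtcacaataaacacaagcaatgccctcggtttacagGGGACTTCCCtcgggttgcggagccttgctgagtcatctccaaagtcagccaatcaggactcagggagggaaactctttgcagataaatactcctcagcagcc
Both strands of all 32851 promoter windows of 250 bases, which belong to 27025 genes, were searched. The windows of 44 members, whether tested in WAT or not, were among them, including 13 of the members lower in DR; Ccl2, Ccl4, Ccl7, Ccl24 and Cxcl16 were lower in DR and were not searched. Some genes have several windows and were counted once. The NF-kB motif stood in 4.46% of all genes and in 9 of the 44 members (20.5%): Cxcl1, Cxcl2, Cxcl3, Cxcl10, Ccl9, Ccr3, Ccl20, Ackr2 and Ccr6. Of these, Ccl9 and Ccr3 were also lower in DR, while Ackr2 and Ccr6 were not called and Cxcl3 and Ccl20 had no counts. The other searched members lower in DR had no match: Ccl3, Ccl6, Ccl8, Ccl12, Ccr1, Ccr2, Cx3cr1 and Cxcr6. The overlapping matches in Cxcl1 (71 and 70 bases before the start) and Cxcl2 (97 and 96 bases before it) are 1 palindromic stretch each, and Cxcl10 has separate matches at 159 and 103 bases. The TATA box letters TATAAA stood in 14.3% of all genes and in 13 of the 44 members (29.5%). A match is a run of letters and not a measured binding site.

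Homeostatic members did not pass the test between DR and AL. The highly expressed stromal ligand Cxcl12 was 143, 158 and 158 CPM in AL and 126, 144 and 137 CPM in DR (-0.18 ± 0.15, adjusted p = 0.407). Its signalling receptor Cxcr4 (-0.14 ± 0.41) and its scavenger Ackr3 (-0.04 ± 0.21) were not called, and neither were the decoy receptors Ackr1 (-0.61 ± 0.34) and Ackr2 (0.06 ± 0.34). Cxcl14, a constitutive chemokine of epithelia that fat also makes, gave -0.49 ± 0.32 (adjusted p = 0.277). For the lymphoid ligands and receptors the errors were wide: Ccl19 1.43 ± 0.99, Ccl21a -0.24 ± 1.34, Ccr7 0.40 ± 0.77, Cxcl13 0.36 ± 1.33, Cxcr5 0.07 ± 0.69 and Ccr6 0.25 ± 1.29. The errors of Ccl21a, Cxcl13 and Ccr6 are wide enough to hold a fall as large as that of Ccr2, so they show only that no difference was detected. The dendritic cell receptor Xcr1 (-0.82 ± 0.38, adjusted p = 0.118) and its ligand Xcl1 (-1.47 ± 0.87, adjusted p = 0.229) also did not pass.

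**Figure D2:**
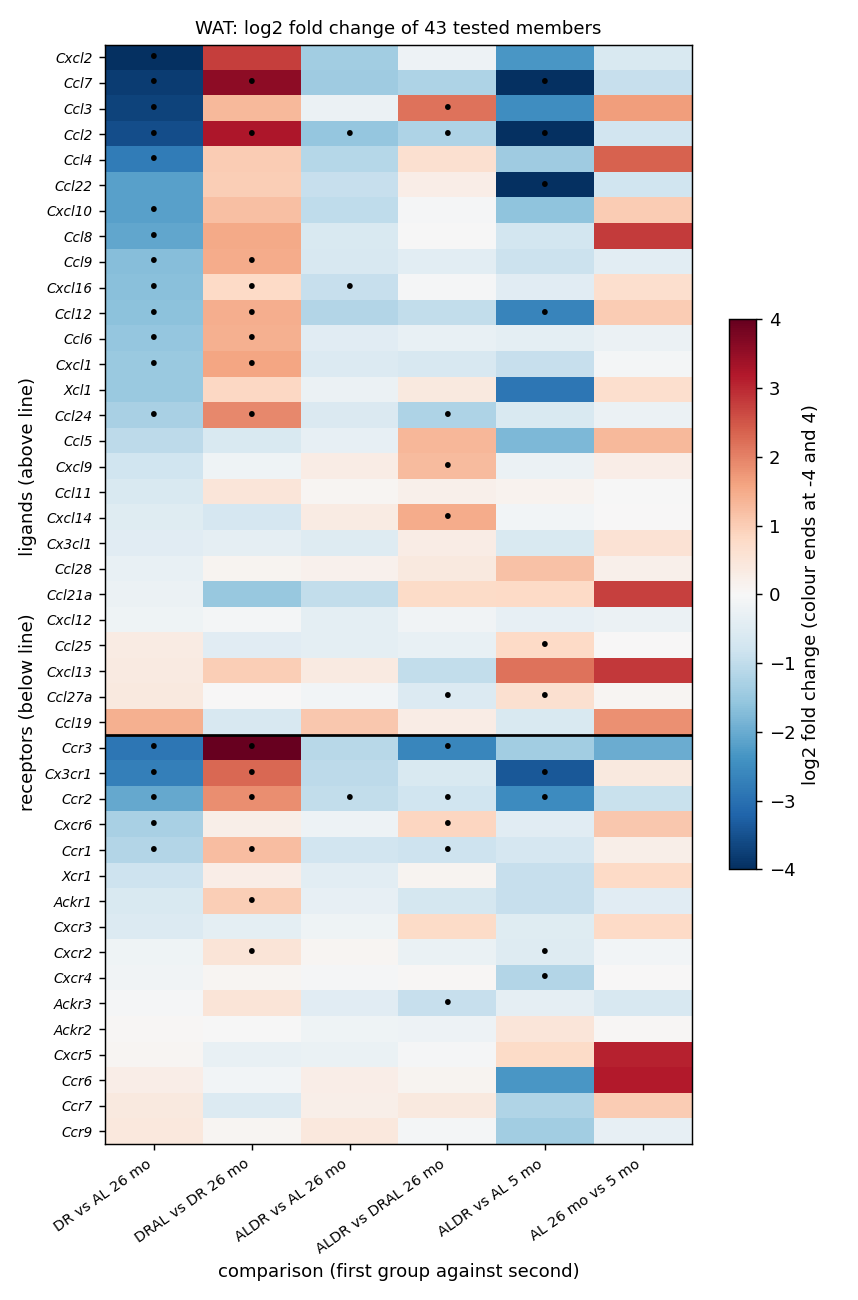
Log2 fold change of 43 tested members (ligands above the line, receptors below) in 6 WAT comparisons, the first group against the second; dots mark an adjusted p under 0.05 and colours end at -4 and 4. The 18 dots of DR vs AL are all blue and the 14 dots of DRAL vs DR all red, and lifelong full feeding at 26 against 5 months has no dot.

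Cell type markers moved with these members. The summed level of 10 macrophage markers was 2252 to 3738 CPM in old AL and 765 to 1034 CPM in DR, with no marker at 0 in any library; 8 of the 10 were lower and 1 (Cd163) higher. Itgax, the CD11c integrin, was the macrophage marker with the largest difference (-4.29 ± 0.69, adjusted p = 0.000205). Of 7 NK cell markers 4 were lower and of 4 tested neutrophil markers 3, while 0 of 10 T cell and 0 of 8 B cell markers passed the test. Without overlap of their sums, dendritic cell markers were at 179 to 251 CPM in AL and 130 to 157 CPM in DR (2 of 6 lower and 1 higher), neutrophil markers at 12.9 to 20.6 CPM and 6.62 to 7.54 CPM, Kupffer cell markers at 38.5 to 47.9 CPM and 14.3 to 23.4 CPM (1 of 5 lower), and brown adipocyte markers at 14.9 to 44.3 CPM and 70.9 to 89.8 CPM (3 of 6 higher). In whole tissue, fewer cells of a type and less RNA per cell cannot be told apart. The skeletal muscle sum was 45.7 to 813 CPM in AL and 350, 4752 and 13985 CPM in DR replicates 1, 2 and 3, and 4 of 8 muscle markers were called higher. The 7 markers of adipose fibroblasts and preadipocytes summed to 5040 to 6256 CPM in AL and 2846 to 3684 CPM in DR, with 2 lower and 0 higher, and the 7 adipocyte markers to 13826 to 14849 CPM in AL and 18018 to 21345 CPM in DR, with 4 higher and 1 lower. In DR replicate 1, whose muscle sum lies within the AL range, Ccl2 was 1.85 CPM, Ccl7 1.68 CPM and Ccr2 33.7 CPM, each below every AL library. The part of these cell types and of muscle in the members' differences was not tested.

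**Figure D3:**
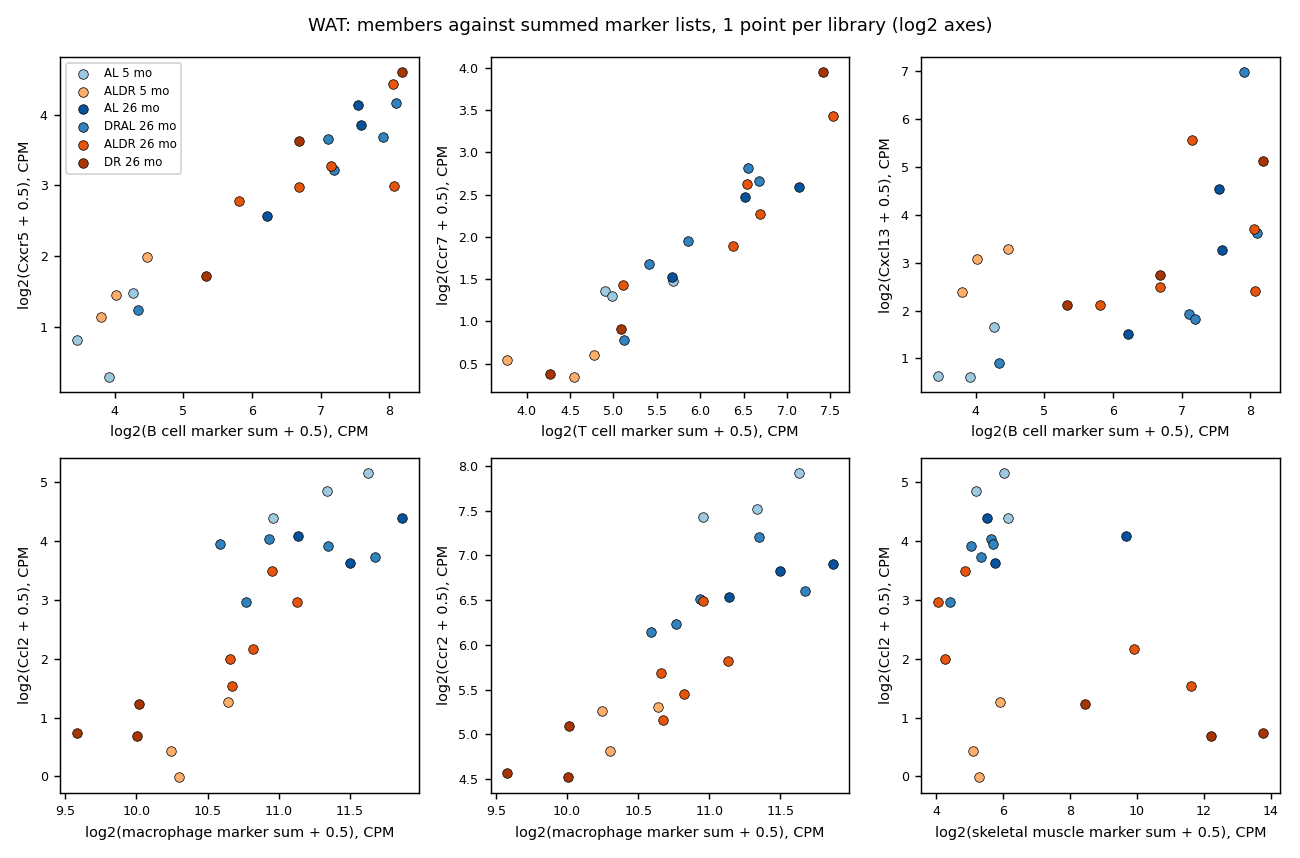
Each point is 1 of the 22 WAT libraries, coloured by group; axes are log2 of CPM plus 0.5, the summed markers of a cell type on the x axis and 1 member on the y axis. The DR libraries at 26 months have the lowest macrophage sums (765 to 1034 CPM) together with low Ccl2 and Ccr2, and the young ALDR libraries have low Ccl2 at a muscle sum of 34.2 to 59.8 CPM.

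Restriction begun at 24 months asked whether old mice still respond. Against lifelong AL, 3 members were lower in ALDR and 0 higher (6.82% of those tested, against 1.7% of all genes called lower); 11 had an unadjusted p under 0.05 and DESeq2 called 4 lower. These were Ccl2 (-1.55 ± 0.39, adjusted p = 0.0314), Ccr2 (-0.98 ± 0.26, adjusted p = 0.0374) and Cxcl16 (-0.92 ± 0.22, adjusted p = 0.0245). Ccl2 in the 5 ALDR libraries read 3.48, 2.41, 7.30, 10.7 and 4.02 CPM, all below the lowest AL library at 11.9. Ccr2 was 51.0, 35.4, 56.0, 89.1 and 43.3 CPM, also below the AL range, and Cxcl16 was 22.2, 22.4, 26.0, 29.8 and 29.1 CPM. Ccl7 ran from 1.97 to 15 CPM and overlapped with AL (-1.43 ± 0.49, adjusted p = 0.103). No member was called when AL replicate 1 or 3 or ALDR replicate 1 or 2 was left out, nor without the libraries rich in markers of other tissue, and 1 without ALDR replicate 5 and 6 without ALDR replicate 4. Macrophage markers summed to 1617 to 2238 CPM in ALDR, below the 2252 to 3738 CPM of AL (1 of 10 called lower), and fibroblast and preadipocyte markers to 2579 to 3857 CPM against 5040 to 6256 CPM (2 of 7 lower). Their part in these calls was not tested.

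Compared with lifelong DR, late ALDR had 6 members higher and 0 lower (13.6%, against 5.81% of all genes called higher; 21 at an unadjusted p under 0.05, and 12 higher and 1 lower by DESeq2). They were Ccl2 (2.01 ± 0.47, adjusted p = 0.00938), Ccl7 (2.35 ± 0.60, adjusted p = 0.0155), Ccr2 (1.05 ± 0.28, adjusted p = 0.0177), Ccl3 (3.47 ± 0.82, adjusted p = 0.0097), Cxcl16 (adjusted p = 0.0425) and Cxcr6 (adjusted p = 0.0377). All 5 ALDR libraries exceeded all 3 DR libraries for Ccl2, Ccl7 and Ccr2, as they did for 8.75% of all genes. The count fell to 0 without DR replicate 3, to 1 without DR replicate 2, and to 0 with the muscle covariate or without the libraries rich in markers of other tissue, and rose to 13 without DR replicate 1. Macrophage markers summed to 1617 to 2238 CPM in ALDR and 765 to 1034 CPM in DR, without overlap (7 of 10 called higher). Dendritic cell sums (163 to 232 CPM against 130 to 157 CPM) and neutrophil sums (10.2 to 22.9 CPM against 6.62 to 7.54 CPM) did not overlap either, with 1 of 6 and 2 of 4 tested markers called higher. Muscle markers summed to 16.1 to 3119 CPM and 350 to 13985 CPM (0 of 8 called). Their part in these calls was not tested.

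After return to full feeding Ccl2, Ccl7, Ccr2, Ccl24 and Ccr3 were higher. DRAL against DR, which shares its DR libraries with the comparison of DR and AL, gave 15 members higher and 0 lower (34.1%, against 14.6% of all genes called higher; 19 at an unadjusted p under 0.05); DESeq2 called 17 higher. Ccl2 was 7.32, 14.6, 15.8, 12.9 and 14.9 CPM in the 5 DRAL libraries, each above every DR library (3.24 ± 0.48, adjusted p = 0.00013). Ccl7 rose by 3.58 ± 0.62 (adjusted p = 0.000431) and Ccr2, at 70.3 to 147 CPM, by 1.86 ± 0.28 (adjusted p = 0.000159). In the eosinophil axis Ccl24 stood at 24.9, 38.9, 25.1, 40.4 and 19.9 CPM (1.93 ± 0.34, adjusted p = 0.000518), and Ccr3 at 10.8, 15.8, 2.32, 4.19 and 1.68 CPM (4.40 ± 0.94, adjusted p = 0.00205). For Ccr3, 698 counts in DRAL against 18 in DR give a ratio of 21.8 with a 95% exact interval of 13.7 to 37.0. Ackr1, the venular decoy receptor, and Cxcr2, the neutrophil receptor, rose here by 0.98 ± 0.31 (adjusted p = 0.0235) and 0.51 ± 0.15 (adjusted p = 0.0151). Muscle markers moved the other way, at 20.9 to 51.5 CPM in DRAL, and 8 of 8 were called lower than in DR; macrophage markers summed to 1541 to 3267 CPM (8 of 10 called higher and 1 lower) and fibroblast and preadipocyte markers to 4878 to 7218 CPM (1 of 7 higher). Neutrophil markers were at 11.6 to 18.7 CPM in DRAL and 6.62 to 7.54 CPM in DR (2 of 4 tested called higher) and Kupffer cell markers at 30.2 to 90.0 CPM and 14.3 to 23.4 CPM (1 of 5), both without overlap. The part of these cell types in the calls was not tested. With the muscle covariate 0 members were called, and 2 (Ccl2 and Ccl24) without the libraries rich in markers of other tissue, where DR keeps 1 library, assumed to vary like the others.

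Set against lifelong AL, DRAL mice had 2 members lower, Cxcl14 (-1.16 ± 0.28, adjusted p = 0.0378) and Cxcl16 (-0.88 ± 0.22, adjusted p = 0.0447), and 0 higher (4.55%, against 1.28% of all genes called lower; 13 at an unadjusted p under 0.05 and 5 lower by DESeq2). Neither call held without AL replicate 1, 2 or 3 or DRAL replicate 3 or 5, and 1 call held without DRAL replicate 1 or 4. Adipocyte markers summed to 15315 to 19527 CPM in DRAL and 13826 to 14849 CPM in AL (1 of 7 called higher) and NK cell markers to 14.1 to 21.0 CPM and 23.5 to 38.3 CPM (0 of 7 called), both without overlap. Muscle sums were 20.9 to 51.5 CPM and 45.7 to 813 CPM. Their part in these calls was not tested. Over the 19 members chosen for being lower in DR than AL, the median log2 difference from AL was -2.08 in DR, -0.98 in late ALDR and -0.32 in DRAL, which describes the chosen members only. The ALDR mean lay between DR and AL for all 19, and the DRAL mean for 15, with Ccl24, Ccr1, Ccr3 and Cxcl1 above AL. Only Ccl3, Ccl4 and Cxcr6 of the 19 had a higher mean in ALDR than in DRAL.

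The opposite late switches were compared directly, in groups of 5 libraries each. Here 4 members were higher in ALDR and 7 lower (9.09% and 15.9%, against 6.37% and 5.96% of all genes). Cxcl14 was 23.5, 31.8, 34.4, 47.3 and 36.1 CPM in ALDR and 18.8, 14.1, 8.76, 9.13 and 10.8 CPM in DRAL, with no overlap (1.48 ± 0.25, adjusted p = 0.00185). Ackr3 ran the other way, at 24.3, 33.7, 32.0, 21.5 and 19.1 CPM in ALDR and 57.4, 59.7, 40.6, 50.7 and 38.0 CPM in DRAL (-0.91 ± 0.16, adjusted p = 0.00249). Cxcl9, the interferon-gamma-induced T cell attractant, was 32.4 to 59.0 CPM in ALDR and 14.2 to 22.8 CPM in DRAL (1.27 ± 0.31, adjusted p = 0.0159). These 3 calls held under all 16 alternatives run for this comparison. Ccl3 (2.18 ± 0.59, adjusted p = 0.024; 71 and 18 counts) and Cxcr6 (0.87 ± 0.28, adjusted p = 0.0485) were also higher in ALDR. The monocyte and eosinophil members Ccl2 (-1.23 ± 0.35, adjusted p = 0.0311), Ccr2 (-0.80 ± 0.23, adjusted p = 0.0293), Ccr1, Ccl24 (-1.22 ± 0.28, adjusted p = 0.00943) and Ccr3 (-2.62 ± 0.67, adjusted p = 0.0187) were lower, as was Ccl27a. Of Ccl27a's transcript, 50.2% of the 100-base windows are shared with near-identical gene copies, so its counts are uncertain. The balance of directions depends on the settings. With the muscle covariate 3 members were higher and 1 lower, and without the libraries rich in markers of other tissue 5 were higher and 3 lower. The split was 4 higher and 3 lower without ALDR replicate 2, 2 and 5 without ALDR replicate 3 or DRAL replicate 1, 3 and 4 without DRAL replicate 3, 3 and 3 without ALDR replicate 5 or DRAL replicate 4, and 3 and 2 without DRAL replicate 2. Fibroblast and preadipocyte markers summed to 2579 to 3857 CPM in ALDR and 4878 to 7218 CPM in DRAL, without overlap (4 of 7 called lower in ALDR), hepatocyte markers to 51.9 to 3073 CPM and 37.1 to 46.9 CPM (0 of 6 called), and macrophage markers to 1617 to 2238 CPM and 1541 to 3267 CPM (1 of 10 higher). Muscle markers summed to 16.1 to 3119 CPM in ALDR and 20.9 to 51.5 CPM in DRAL, with 7 of 8 called higher in ALDR. Their part in these calls was not tested.

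In young mice, the monocyte axis was lower after 2 months of restriction. Against young AL, 9 members were lower and 2 higher (20.5% and 4.55%, against 14.4% and 14.8% of all genes); 22 had an unadjusted p under 0.05, and DESeq2 called 13 lower and 2 higher. Ccl2 was 35.3, 28.3 and 20.6 CPM in AL and 0.851, 0.489 and 1.91 CPM in ALDR (-4.69 ± 0.55, adjusted p = 1.29e-05). Ccl7 was 42.2, 21.0 and 24.3 CPM in AL and 0.851, 0.489 and 2.13 CPM in ALDR (-4.65 ± 0.68, adjusted p = 8.31e-05), so that in this comparison the lowest AL library of either ligand was well above the highest ALDR library. Ccr2 was 242, 183 and 172 CPM against 38.0, 27.7 and 39.1 CPM (-2.51 ± 0.31, adjusted p = 2.02e-05). Ccl12 (-2.65 ± 0.61, adjusted p = 0.0031) and Cx3cr1 (-3.38 ± 0.78, adjusted p = 0.00333) were lower too. Ccl22, a dendritic cell and macrophage ligand of Ccr4, dropped from 130 counts in AL to 5 in ALDR, a ratio of 20.6 with a 95% exact interval of 8.59 to 64.4 (adjusted p = 0.00404). These 6 calls held under each of the 12 alternatives.

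Cxcr2 (-0.53 ± 0.17, adjusted p = 0.0225) and Cxcr4 (-1.18 ± 0.43, adjusted p = 0.045) completed the members that were lower at 5 months, and Ccl25 (0.79 ± 0.27, adjusted p = 0.0369), a gut and thymus ligand of Ccr9, and Ccl27a (0.65 ± 0.21, adjusted p = 0.0275) were higher. Cxcl16, called in the old mice, was 31.9, 34.8 and 26.3 CPM in AL and 22.4, 21.1 and 24.3 CPM in ALDR (-0.46 ± 0.26, adjusted p = 0.193). Muscle markers summed to 36.3 to 70.9 CPM in young AL and 34.2 to 59.8 CPM in young ALDR, so both young groups were low in muscle. Macrophage markers summed to 1989 to 3168 CPM in AL and 1214 to 1595 CPM in ALDR, with 5 of 10 called lower and 1 higher, and fibroblast and preadipocyte markers to 6202 to 7165 CPM in AL and 4065 to 5518 CPM in ALDR, with 2 of 7 lower. Among leukocytes, neutrophil markers were at 15.5 to 24.6 CPM in AL and 5.66 to 7.58 CPM in ALDR (2 of 4 tested called lower), NK cell markers at 20.8 to 36.5 CPM and 4.78 to 10.9 CPM (5 of 7 lower), and T cell markers at 29.4 to 51.1 CPM and 13.2 to 27.0 CPM (0 of 10). Plasma cell, mesothelial and lymphatic endothelial sums were higher in every ALDR library, with 2 of 6, 1 of 6 and 1 of 6 markers called higher and 1 plasma cell marker lower. The part of these cell types in the calls was not tested. The old DR against AL and the young ALDR against AL comparisons share no library. Of the members lower in each, 6 were lower in both, among them Ccl2, Ccl7, Ccl12, Ccr2 and Cx3cr1, which is 31.6% of the 19 in old and 66.7% of the 9 in young mice. Over all genes, 1288 were lower in both, 65.3% of those lower in old and 56.7% of those lower in young mice.

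With age under full feeding, 0 of 44 members passed edgeR's test between 26 and 5 months, where 0.114% of all genes did; 11 had an unadjusted p under 0.05 and DESeq2 called 3 higher. The smallest adjusted p-values belonged to Cxcr5 (3.08 ± 0.78, adjusted p = 0.0669), Ccl4 (2.36 ± 0.61, adjusted p = 0.0723) and Ccl8 (2.79 ± 0.78, adjusted p = 0.0854), each with a higher mean at 26 months. Ccl8 read 104, 172 and 46.3 CPM in old AL and 19.6, 17.2 and 9.40 CPM in young AL, with no overlap. B cell markers summed to 73.6 to 192 CPM in old AL and 10.4 to 18.7 CPM in young AL, also without overlap, though 0 of 8 were called. Sums of dendritic cell, Kupffer cell, plasma cell and lymph node stroma markers were also higher in every old AL library, and those of adipocyte and epithelial markers lower, with 0 markers called. Their part in these values was not tested. The call count was 4 without the libraries rich in markers of other tissue.

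Whether the response to late restriction differed from that to early restriction was tested as an interaction, the change at 26 months minus the change at 5 months. Ccl2 was the 1 member called (3.14 ± 0.66, adjusted p = 0.0296), against 1.34% of all genes; 8 members had an unadjusted p under 0.05, and DESeq2 called 3 higher and 1 lower. Its change was -4.69 in young and -1.55 in old mice. Ccl7 (3.22 ± 0.82, adjusted p = 0.0545) and Ccr2 (1.53 ± 0.40, adjusted p = 0.0578) were next and did not pass. The Ccl2 call was lost under 9 of 20 alternatives, among them leaving out any 1 of the 3 old AL libraries, young AL replicate 1, old ALDR replicate 3 and young ALDR replicate 1 or 2, with adjusted p between 0.000287 and 0.11.

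Lymphoid members varied widely between libraries of the same group. Cxcr5, the follicular B cell receptor, was 17.1, 14 and 5.45 CPM in old AL, 23.7, 2.80 and 11.9 CPM in DR and 0.725 to 2.28 CPM in young AL. Its ligand Cxcl13 reached 126 CPM in DRAL replicate 4, where the other 4 DRAL libraries held 1.38 to 11.8 CPM. Summed B cell markers ran from 39.6 to 291 CPM within DR and from 19.7 to 272 CPM within DRAL, but only from 10.4 to 18.7 CPM in young AL. In DR replicate 1, which had the highest B cell sum (291 CPM) of that group, Cxcr5 (23.7 CPM), Ccl19 (13.3 CPM), Ccr7 (14.9 CPM) and Ccr6 (4.99 CPM) were each the highest of the 3 DR libraries. Ccr7, the homing receptor of naive T cells and mature dendritic cells, was 1.37 and 0.803 CPM in DR replicates 2 and 3. Of the transcripts of Ccl19 and Ccl21a, 41.8% and 50.3% of 100-base windows are shared with other gene copies, so these ligands' counts are uncertain.

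Genes around the chemokine receptors were described from lists. Of 32 genes for signalling downstream of the receptors, 16 were lower in old DR than in AL and 0 higher (median -0.61), and 19 were lower in young ALDR and 0 higher. Among them Rgs18, a regulator of G protein signalling in myeloid cells and platelets, went from 13.9 to 3.59 CPM on average (-1.95 ± 0.28), and Gnai2, the inhibitory G protein subunit used by leukocytes, differed by -0.67 ± 0.12. Of 20 leukocyte adhesion genes 6 were lower in DR and 0 higher (median -0.42), led in size by Itgax, which is also in the macrophage list, and by the beta-2 integrin Itgb2 (-2.19 ± 0.38). Of 20 tested cytokines and sensors that induce chemokines 9 were lower and 0 higher (median -0.41), among them Tnf (-1.81 ± 0.45), Myd88 (-0.70 ± 0.13) and Tlr4 (-0.45 ± 0.11). The shares of the 3 lists lower in DR were read against the 12.5% of all genes called lower, and at 5 months against 14.4%. They depend on the libraries: with the muscle covariate 5, 4 and 5 genes of the signalling, adhesion and cytokine lists were lower in DR, and 4, 0 and 0 without the libraries rich in markers of other tissue. At 5 months 19, 7 and 5 genes were lower and 0, 1 and 1 higher; 20, 8 and 5 were lower with the covariate, and 18, 6 and 3 without the libraries rich in markers of other tissue. In late ALDR against AL the 3 lists had 1 lower, 1 higher and 0 called genes respectively (1.7% of all genes were called lower and 2.66% higher), and in DRAL against DR 8, 6 and 6 genes were higher and 1, 0 and 1 lower, where 14.6% of all genes were called higher. The last comparison had 0 genes of any list called with the muscle covariate, and 2, 1 and 0 higher without the libraries rich in markers of other tissue.

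The counts of called members were also taken by gene cluster (GRCm38), beside 12.5% of all genes called lower in DR than in AL, 14.4% lower in young ALDR and 14.6% higher in DRAL than in DR. The cluster at chr11:82035571-82305690 holds Ccl2, Ccl7, Ccl11, Ccl12, Ccl8 and Ccl1; of the 5 tested in WAT, 4 were lower in old DR, 3 were lower in young ALDR and 3 were higher in DRAL than in DR. Of the receptor genes Ccr9, Cxcr6, Xcr1, Ccr1, Ccr3 and Ccr2 on chromosome 9, 4 of 6 were lower in DR, 1 in young ALDR and 3 higher in DRAL than in DR. In the macrophage chemokine cluster at chr11:83525778-83664683 (Ccl5, Ccl9, Ccl6, Ccl3 and Ccl4), 4 of 5 were lower in DR and 0 in young ALDR. Both tested genes of chr5:90759360-90905938, Cxcl1 and Cxcl2, were lower in DR. The cluster on chromosome 4 with Ccl27a, Ccl19 and Ccl21a had 0 of 3 called in DR. Other called members stand alone: Ackr3 at chr1:90203980-90216751, Cxcl14 at chr13:56288643-56296551 and Cxcl16 at chr11:70453983-70459984. Exons of Cxcl16 overlap those of Zmynd15 on the opposite strand and exons of Ackr1 overlap those of Cadm3 on the same strand. How reads in these overlaps were counted is not given in the sources used here.

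In BAT the monocyte attractants Ccl2 and Ccl7 had few counts, and the atypical receptor Ackr3 changed most clearly. At 26 months, 3 of 33 tested members were lower in DR than in AL and 0 higher (9.09%, against 5.52% of all 13845 genes called lower; 5 at an unadjusted p under 0.05 and 4 lower by DESeq2). Ackr3, which clears Cxcl12 from the tissue, was 124, 61.1 and 82.4 CPM in AL and 19.9, 36.8 and 33.4 CPM in DR (-1.58 ± 0.32, adjusted p = 0.00495). Cxcl12 itself was 119, 130.4 and 174 CPM in AL and 81.1, 106 and 100.0 CPM in DR (-0.56 ± 0.17, adjusted p = 0.0404), and their shared partner Cxcr4 was not called (-0.34 ± 0.53, adjusted p = 0.724). Ccl7 passed on 43 counts in AL and 3 in DR, a ratio of 11.9 with a 95% exact interval of 3.82 to 60.1 (adjusted p = 0.0214). Ccl2 was 0.812, 2.28 and 0.588 CPM in AL and 0.43, 0.652 and 0.427 CPM in DR (-1.34 ± 0.69, adjusted p = 0.221), near the counting floor. The Ackr3 call held under all 12 alternatives, the Cxcl12 call was lost with the muscle covariate and without AL replicate 3 or any 1 DR library, and the Ccl7 call was lost under 5 of 12. Muscle markers summed to 2.06 to 583 CPM in AL and 919 to 3752 CPM in DR. The 6 brown adipocyte markers moved with Ackr3, at 5835 to 8509 CPM in AL and 3929 to 4923 CPM in DR, without overlap and with 2 of 6 called lower. General adipocyte sums were 5491 to 5708 CPM in AL and 5879 to 6640 CPM in DR (1 of 7 lower), mesothelial sums 3.79 to 4.82 CPM and 8.64 to 11.8 CPM (1 of 2 tested higher) and neutrophil sums 1.71 to 3.05 CPM and 1.43 to 1.63 CPM (0 of 1 tested called). Their part in these 3 calls was not tested.

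After the switches in BAT, Ackr3 was called in 1 comparison. In late ALDR it was 58.0, 72.2, 71.7, 47.3 and 49.1 CPM, above every DR library (1.00 ± 0.29 against DR, adjusted p = 0.0519) and not called against AL (-0.57 ± 0.27, adjusted p = 0.28). In DRAL it was 48.2, 76.9 and 88.9 CPM and was called higher than in DR (1.26 ± 0.32, adjusted p = 0.0212), the 1 member called there (3.03%, against 3.47% of all genes called higher); the call was lost without DR replicate 1 or 3 or DRAL replicate 2 or 3. At 5 months Ackr3 was 118, 151 and 80.2 CPM in AL and 26.2, 39.2 and 45.0 CPM in ALDR (-1.66 ± 0.31, adjusted p = 0.00244), again without overlap and called under all 12 alternatives. Brown adipocyte markers had sums of 5897 to 8177 CPM in DRAL (2 of 6 called higher than in DR), 5948 to 9279 CPM in old ALDR, 7123 to 9614 CPM in young AL and 4229 to 5946 CPM in young ALDR (2 of 6 lower). Muscle sums were 7 to 479 CPM in DRAL, 353 to 5409 CPM in old ALDR, 416 to 5262 CPM in young AL and 68.4 to 1812 CPM in young ALDR. In young mice, general adipocyte sums were 5343 to 5636 CPM in AL and 7018 to 7734 CPM in ALDR (4 of 7 called higher and 1 lower), and blood endothelial sums 869 to 949 CPM and 703 to 801 CPM (1 of 7 lower). Fibroblast and preadipocyte sums were 544 to 623 CPM in DRAL and 324 to 536 CPM in DR (1 of 7 higher). The part of these cell types in the Ackr3 results was not tested. The same gene in WAT was 32.3 to 37.9 CPM in old AL and 29.9 to 39.5 CPM in DR.

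**Figure D4:**
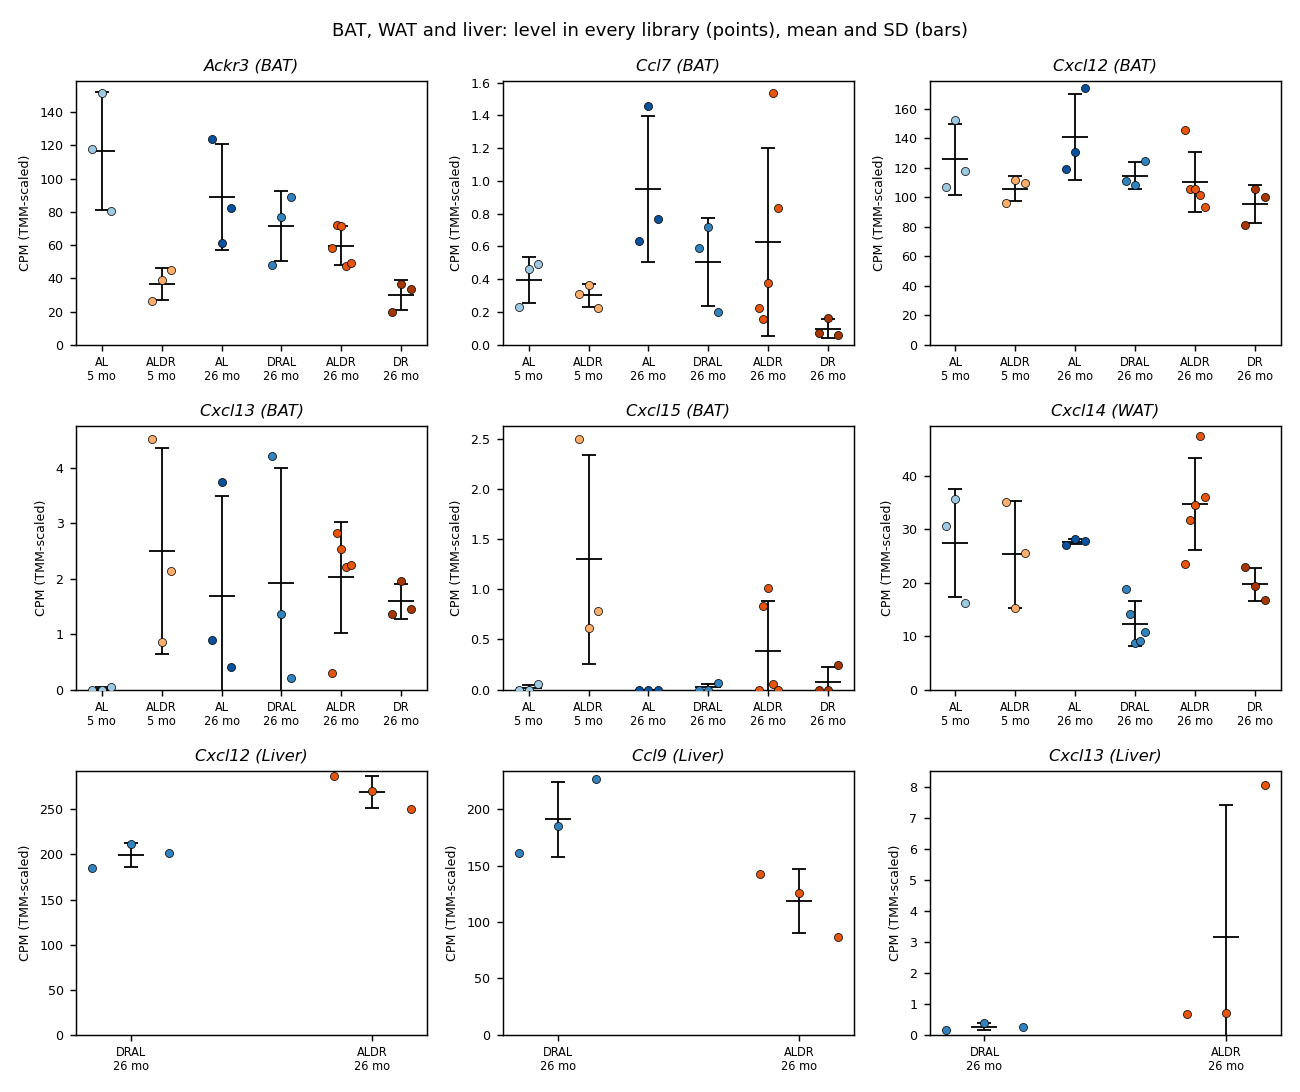
CPM (linear axis from 0) per library by group, with mean and SD, for 5 members in BAT, for Cxcl14 in WAT and for 3 members in liver. Ackr3 in BAT is lowest in DR and young ALDR (19.9 to 45.0 CPM). The mean of Cxcl14 in WAT is lowest in DRAL (8.76 to 18.8 CPM), a range that overlaps those of DR, young AL and young ALDR.

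Young ALDR mice had 2 members higher and 1 lower than young AL in BAT (6.06% and 3.03%, against 7.2% and 7.22% of all genes; 9 at an unadjusted p under 0.05). DESeq2 called 2 higher and 2 lower, and Ackr3, above, was the member lower by edgeR. The B cell attractant Cxcl13 was 0, 0 and 0.0546 CPM in AL and 4.52, 0.856 and 2.14 CPM in ALDR. That is 1 count against 110, a ratio of 109 with a 95% exact interval of 19.1 to 4340 (adjusted p = 0.00679); the fitted log2 value, 6.39, depends on the prior count. Cxcl15, a chemokine best known from lung epithelium, had 1 count in AL and 56 in ALDR, a ratio of 55.4 with an interval of 9.55 to 2230 (adjusted p = 0.0343), and its call was lost without any 1 of the 3 AL libraries or ALDR replicate 1 or 3. Epithelial markers summed to 4.42 to 10.2 CPM in young AL and 28 to 64.6 CPM in young ALDR, and mesothelial markers to 5.51 to 6.31 CPM and 20.2 to 36.9 CPM, with 3 or 4 of the 6 mesothelial markers at 0 in each library. Plasma cell markers summed to 69.5 to 78.4 CPM in young AL and 136 to 144 CPM in young ALDR (1 of 5 tested called higher). That list includes Xbp1 and Sdc1, which made up most of its sum in liver, so the sum need not reflect plasma cells. The part of these cell types in the 2 calls was not tested. B cell markers were 0.218 to 0.985 CPM in young AL and 0.55 to 2.03 CPM in young ALDR, with 4 or 5 of 8 at 0 in the AL and 3 to 5 at 0 in the ALDR libraries.

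The remaining BAT comparisons called 0 members by edgeR. These were ALDR against AL at 26 months (6 at an unadjusted p under 0.05; 1 lower by DESeq2; 1.3% of all genes called), ALDR against DR (7; 3 higher; 5.21%), DRAL against AL (0; 0 by DESeq2; 0.0%), ALDR against DRAL (5; 0; 2.02%), AL at 26 against 5 months (4; 2 higher; 0.0795%) and the interaction of restriction with age (4; 1 lower; 0.0144%). Of the 33 tested members 30 lay below 0 in DR against AL, with a median of -0.56, beside -0.01 over all genes. In AL replicate 2, rich in B and T cell markers, Cxcl9 was 41.0 CPM against 9.02 and 9.71 CPM in the other AL libraries. For some members the sign rests on that library. Cxcr5 was 0.18 and 0.412 CPM in AL replicates 1 and 3 and 0.549 to 1.94 CPM in DR, and Cxcr3 0.0902 and 0.176 CPM against 0.215 to 0.854 CPM. Ackr3, Cxcl12 and Ccl7 were higher in AL replicates 1 and 3 than in every DR library. How many of the 30 depend on AL replicate 2 was not counted.

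Liver was sampled only after the late switches. The mice are labelled female, but 4 of the 6 liver libraries held 11 to 20 counts on 4 Y chromosome genes and the other 2, ALDR replicate 2 and DRAL replicate 3, held 0. The same 4 libraries had skeletal muscle sums of 5.88 to 11.4 CPM, and the other 2 sums of 0.141 and 0.180 CPM. Hepatocyte markers summed to 94578 to 106481 CPM in ALDR and 74839 to 83840 CPM in DRAL, without overlap (2 of 6 called higher in ALDR). Fibroblast markers were at 476 to 515 CPM in ALDR and 410 to 454 CPM in DRAL (1 of 7 higher), epithelial markers at 196 to 274 CPM and 458 to 518 CPM (2 of 4 tested lower), plasma cell markers at 537 to 672 CPM and 968 to 1254 CPM (2 of 4 tested lower) and brown adipocyte markers at 13.8 to 20.3 CPM and 5.23 to 10.9 CPM (1 of 3 tested higher), all without overlap. Most of the plasma cell sum was Sdc1 (431 to 549 CPM in ALDR and 766 to 1075 CPM in DRAL) and Xbp1 (101 to 127 CPM and 173 to 199 CPM). Jchain was at most 4.99 CPM, Mzb1 at most 0.209 CPM and Tnfrsf17 at 0, so that sum does not measure plasma cells. Within the fibroblast sum, Dpp4 was 175 to 220 CPM in ALDR and 176 to 207 CPM in DRAL, with overlap. The part of these marker lists in the results was not tested. In ALDR against DRAL, 2 of 22 tested members were higher and 2 lower (9.09% each, against 10.9% and 12.9% of all 12761 genes), shares that do not stand above those of all genes; 6 had an unadjusted p under 0.05, and DESeq2 called 2 higher and 1 lower. Cxcl12 was 287, 271 and 251 CPM in ALDR and 186, 212 and 201 CPM in DRAL (0.43 ± 0.11, adjusted p = 0.0152). Ccl9 was 143, 126 and 86.9 CPM in ALDR and 161, 185 and 227 CPM in DRAL (-0.69 ± 0.19, adjusted p = 0.0232). The groups did not overlap for either gene, nor for 19.0% of all genes in the direction of Cxcl12 and 22.4% in that of Ccl9. The pair of libraries with no Y counts had Cxcl12 at 271 and 201 CPM and Ccl9 at 126 and 227 CPM. The Cxcl12 call was lost with the replicate block and without ALDR replicate 1 or DRAL replicate 1, and the Ccl9 call with the block and without ALDR replicate 3 or DRAL replicate 2 or 3. The number of members called was 1 with the block or without DRAL replicate 3, and 2 without ALDR replicate 1 or 3 or DRAL replicate 2.

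Ccl24 in liver was 1.95, 1.74 and 1.36 CPM in ALDR and 2.97, 2.40 and 3.97 CPM in DRAL (-0.88 ± 0.28, adjusted p = 0.0441), a call lost under 7 of 11 alternatives. Cxcl13 was 0.673, 0.705 and 8.06 CPM in ALDR and 0.159, 0.386 and 0.24 CPM in DRAL (3.53 ± 1.00, adjusted p = 0.029). Without ALDR replicate 3, the library at 8.06 CPM, its difference was 1.34 and not called (adjusted p = 0.136; 0.00952 to 0.136 over all alternatives), and the call was also lost without any 1 DRAL library. With the Y chromosome counts as a covariate the 4 members were still called, Cxcl12 at 0.43 (adjusted p = 0.0163), Ccl9 at -0.65 (adjusted p = 0.0293), Cxcl13 at 3.26 (adjusted p = 0.0431) and Ccl24 at -0.84 (adjusted p = 0.0494). Ccl27a, at 3.24 to 3.76 CPM in ALDR and 2.06 to 2.75 CPM in DRAL, and Cxcl9, at 3.35 to 3.86 and 4.24 to 5.29 CPM, had the next smallest adjusted p-values (0.119 and 0.125) and were not called. Ccl2 (-0.02 ± 0.54) and Ccr2 (-0.26 ± 0.25), which differed between the same switches in WAT, were not called in liver; whether the tissues differ was not tested. Macrophage markers in liver summed to 433 to 670 CPM in ALDR and 426 to 521 CPM in DRAL.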

How the data were processed

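RNA from 48 libraries (22 WAT, 20 BAT, 6 liver) had been sequenced by the submitters, WAT and liver as stranded paired-end 100 bp reads of ribosome-depleted RNA and BAT as single-end 150 bp reads of polyadenylated RNA, per the labels' protocols. The authors deposited raw counts per gene; the submitters' processing notes name Trim Galore 0.3.7, TopHat2 2.0.14, DESeq2 and build GRCm38, and the counter is not given in the sources used here.

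Counts were analysed with edgeR 4.0.16 in R 4.3.3: 1 quasi-likelihood fit per tissue over all its groups, filterByExpr by group, TMM, and Benjamini-Hochberg adjustment over all genes tested, with a threshold of 0.05. DESeq2 1.42.0 was an alternative. A call means an adjusted p under 0.05; values after ± are SE for differences and SD for levels. BAT and WAT differ in library type and were never tested together. The gene family and the lists were chosen with earlier results of these data known. Values in every library are given for the members called in most comparisons of a fat depot and for those with the smallest adjusted p in liver; the receptor and ligand pairs were described whatever they did. BAT titles writing ADRL were read as ALDR from their descriptions. Libraries of a group differed by more than sampling noise (chi-square per degree of freedom at least 8.21). The fit was tested on simulated counts. Values of 1 member that enters the counts are not reported here. Intervals and floors cover counting error only.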

Additional observations from a re-analysis of the deposited data

Results flagged for a closer look

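Groups of 5 libraries were searched for a single library far from the rest, in 82 combinations with members of a fixed list. A gap over 0.71 of the group's range counted as such, and 10 combinations had one. Ccl8 was not on that list. For independent normal values chance gives about 1 in 20; the rate was not measured for these CPM values, and members of 1 library are not independent. In WAT of old ALDR mice, replicate 4 held Ccl7 at 15 CPM (next highest 4.92 CPM) and Cxcl13 at 46.7 CPM (next 12.5 CPM), and replicate 1 held Cxcr5 at 21.0 CPM (next 9.20 CPM). In WAT of DRAL mice, replicate 4 held Cxcl13 at 126.0 CPM (next 11.8 CPM) and Cxcl16 at 44.8 CPM (next 25.6 CPM). Ccl8, outside the search, was 219 CPM in the same library (next 53.9 CPM). In BAT of old ALDR mice the high values were Ackr2 at 3.8 CPM in replicate 3, Cx3cr1 at 5.97 CPM and Cxcl16 at 15.2 CPM in replicate 5, the library rich in epithelial markers (344 CPM), and Cxcl12 at 145.0 CPM in replicate 1. Cxcl13 in that replicate 1 was the lowest of its group, at 0.3 CPM, with the next at 2.22 CPM.

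The change of Ccl2 in WAT with restriction differed between old and young mice by 3.14 ± 0.66 on the log2 scale (interaction, edgeR adjusted p = 0.0296), smaller in the old. That call was lost when any old AL library was left out, and under further settings given above.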

How the results depend on the processing

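The 79 called results of single members kept their sign under the alternatives that gave a value. RLE in place of TMM lost 0 of these calls, DESeq2 1 of 78, no filter 8 and the replicate block 9. The muscle covariate lost 43 of the 75 calls in fat, and leaving out the libraries rich in markers of another tissue lost 49 of 75, with fewer libraries and in WAT 1 DR library; 15 of the 79 held throughout. That last alternative and the liver Y covariate were chosen after seeing the data. In numbers of members called, WAT DR against AL (19) had 7 with the muscle covariate and 2 without the libraries rich in markers of other tissue. WAT ALDR against AL (3) had 5 with the replicate block and 0 without those libraries. WAT ALDR against DR (6) had 13 by DESeq2, 3 with the block, 0 with the muscle covariate and 0 without those libraries. WAT DRAL against DR (15) had 0 and 2 under the last pair of settings. WAT DRAL against AL (2) had 1 without a filter, 5 by DESeq2, 1 with the block and 4 with the muscle covariate. WAT ALDR against DRAL (11) had 4 with the muscle covariate. WAT AL at 26 against 5 months (0) had 3 by DESeq2, 2 with the block and 4 without those libraries, and the WAT interaction (1) had 4, 0 and 0, and 3 with the muscle covariate. BAT DR against AL (3) had 1 with the muscle covariate. BAT ALDR against AL (0) had 1 by DESeq2 and 1 with the block, and BAT ALDR against DR (0) had 3 by DESeq2, 2 with the muscle covariate and 2 without those libraries. BAT DRAL against DR (1) had 3 with the block. BAT ALDR against AL at 5 months (3) had 5 with the block and 5 without those libraries. The BAT age comparison (0) had 2 and the BAT interaction (0) had 1 by DESeq2, and liver (4) had 1 with the block. The cause of these shifts was not tested.

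Leaving out each library in turn gave, in WAT, 12 to 24 members for DR against AL, 0 to 6 for ALDR against AL, 0 to 13 for ALDR against DR, 10 to 19 for DRAL against DR, 0 to 2 for DRAL against AL, 5 to 11 for ALDR against DRAL, 8 to 12 at 5 months, 0 to 1 for age and 0 to 3 for the interaction. In BAT it gave 1 to 4 for DR against AL (1 without DR replicate 1 or 3), 0 to 1 for ALDR against AL, 0 to 2 for ALDR against DR, 0 to 1 for DRAL against DR, 2 to 3 at 5 months and 0 in the other 4 comparisons; in liver it gave 1 to 3, with 1 without DRAL replicate 3. Cxcl13 in BAT, not called, changed sign. Its difference in BAT DR vs AL 26m was 0.062 with the replicate block and ran from -0.59 without AL replicate 3 to 1.29 without AL replicate 2, the one AL library rich in markers of other tissue. In BAT ALDR vs AL 26m it was -0.02 and -0.21 without AL replicate 1 or 3 and 1.66 without AL replicate 2. Replicate numbers did not pair libraries: same-numbered libraries correlated at 0.003 in WAT, -0.025 in BAT and -0.19 in liver on average, and 5 of 22, 4 of 20 and 0 of 6 libraries correlated best with their own number. Members under about 3 counts per library (0.131 to 0.494 CPM of the unscaled totals) are not measured at this depth.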
